A study of Caenorhabditis elegans with 5 samples.

Results

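The transthyretin-like genes of Caenorhabditis elegans, named ttr with a number, encode a large nematode family of small proteins related in sequence to the vertebrate hormone carrier transthyretin. All 58 gene names of this form in a table of 42048 genes were taken as members, and those tested were selected on level: a normalised read count of 10 or higher in 2 or more of 5 libraries, which 47 of the 58 reached and which is what measured means below. Membership itself followed the name alone, but the family was chosen with earlier results of these data known. RNA came from neurons sorted by fluorescence from animals on day 1 of adulthood, grown at 16 degrees, in 3 libraries of the thoc-5(wy822) mutant and 2 of the wildtype. Animals of each genotype carried the transgene edIs6, which is known as a reporter of the pan-neuronal gene unc-119, and thoc-5 encodes a subunit of the THO complex that packages new messenger RNA for export. The labels neither describe the wy822 lesion nor say that replicate libraries are separate cultures. The p-values then reflect spread between these samples alone, and that spread may be technical.

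Most members of the family carry a signal for secretion, and few have a known role. TTR-52 is secreted and binds phosphatidylserine on dying cells and the engulfment receptor CED-1, so it acts as a bridge between corpse and phagocyte. TTR-33 is known to protect dopamine neurons from oxidative damage. For the other members described here no role is stated.

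In the WBcel235 annotation all 58 members are protein-coding, with a longest protein of 89 to 406 residues and a median of 143. The length lay between 130 and 180 residues for 53 members, and 57 have 2 to 5 coding exons. The longest was ttr-14, with 406 residues and 9 coding exons. Chromosome V holds 22 members, X 12, IV 10, III 9, I 3 and II 2. Exon bases are shared with another gene by 17 members, 13 of them measured. Of the members, 29 lie within 3 protein-coding genes of another member.

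The 11 members that were not measured held few reads or none. No read was counted for ttr-11, ttr-13 or ttr-57 in any library, and at these depths 0 reads allows a share of at most 2.91e-05% to 4.41e-05% of a library's reads (3 reads, counting error only). All 3 members of chromosome I were among the 11, with 2 reads each for ttr-55 and ttr-56 in wildtype replicate 1 and 2 for ttr-58 in wildtype replicate 2. The exons of ttr-55 and ttr-56 share 17 bases, and whether the same reads were counted for each was not tested. Mutant reads alone were counted for ttr-40 (3 and 4 in mutant replicates 1 and 2) and ttr-19 (3 in mutant replicate 2), and ttr-37 had 2 reads in wildtype replicate 1. ttr-38 had 0, 1 and 2 reads in mutant replicates 1 to 3, against 5 and 7 in wildtype replicates 1 and 2.

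Values around the threshold were close. Just outside it, ttr-9 had a normalised count of 1.12 in mutant replicate 2 and 39.3 in wildtype replicate 2, with no read in the other libraries. Just inside it, ttr-12 had 12.3 in mutant replicate 2 and 66.9 in wildtype replicate 2, again with no read elsewhere. The members that passed through the wildtype libraries alone were ttr-35 and ttr-50, none passed through the mutant libraries alone, and 25 were at 10 or more in all 5 libraries.

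Depth was 6.80 to 8.69 M reads in the mutant libraries and 10.23 and 10.31 M in the wildtype libraries. The 58 ttr genes together took 0.187% (95% Clopper-Pearson interval 0.183 to 0.190), 0.266% (0.263 to 0.270) and 0.165% (0.162 to 0.168) of the reads of mutant replicates 1 to 3. In wildtype replicates 1 and 2 they took 0.382% (0.378 to 0.386) and 0.477% (0.473 to 0.481). The summed share was thus below either wildtype library in all 3 mutant libraries. In mutant replicates 1 to 3, 44, 51 and 45 members had a read, against 50 and 49 in wildtype replicates 1 and 2. The members that made up the sum differed: ttr-39 gave 56.6% and 64.2% of the ttr reads in mutant replicates 1 and 3 but 12.1% in mutant replicate 2, where ttr-1 led with 14.6%. In wildtype replicates 1 and 2, ttr-15 led with 38.9% and 39.8%, and ttr-16 followed with 22.01% and 15.02%.

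**Figure D1:**
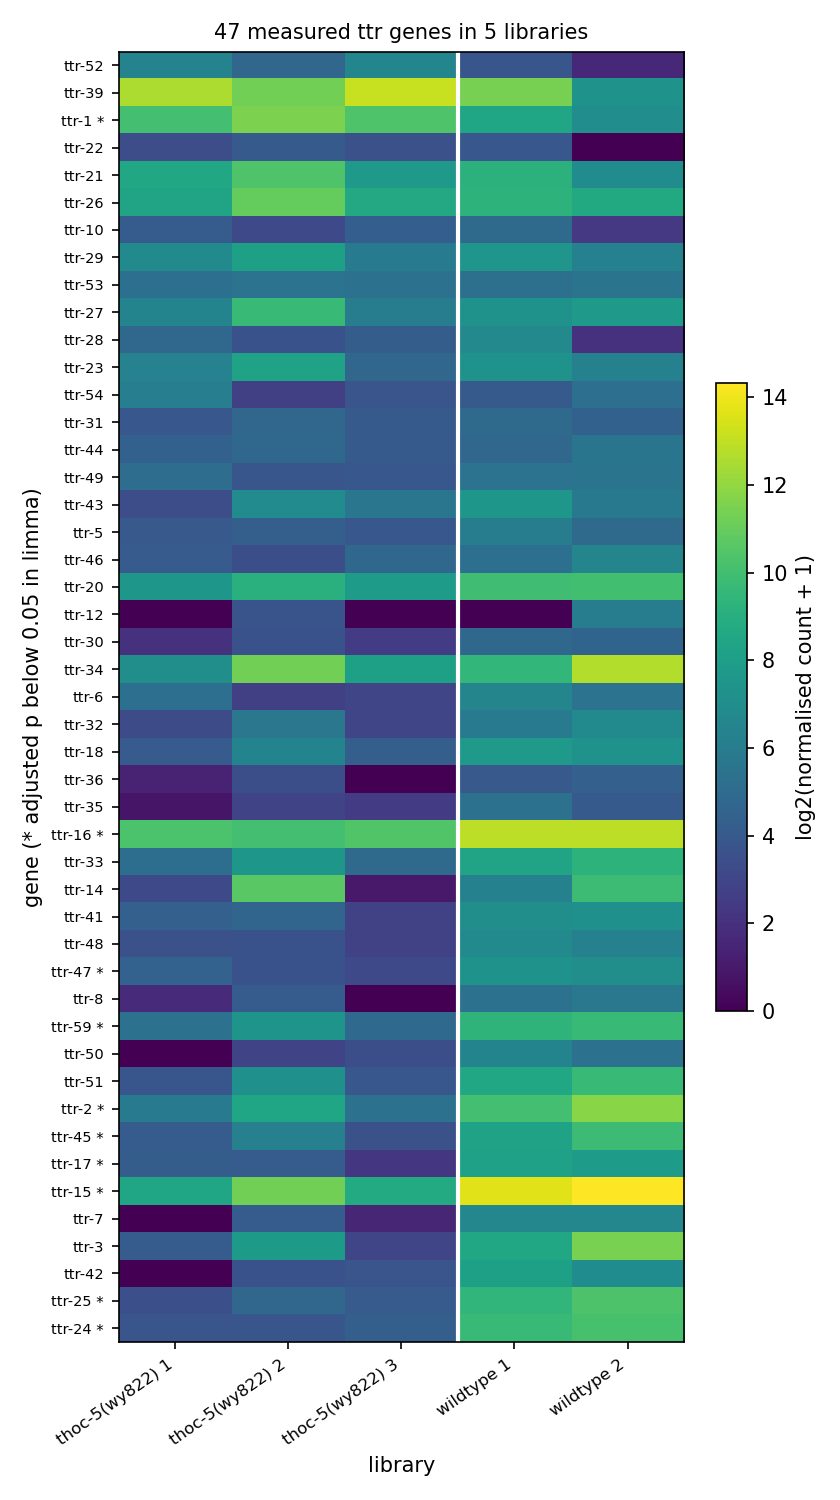
Level of each of the 47 measured ttr genes (rows, ordered from the highest to the lowest log2 fold change) in 3 thoc-5(wy822) libraries and 2 wildtype libraries (columns), as log2(normalised count + 1); levels are not scaled for gene length, so colours compare libraries within a row. The lower rows are darker in the mutant columns, and ttr-1, ttr-39 and ttr-52 stand at the top.

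Transcripts that mark other tissues differed between the groups in the same libraries. As background to the calls given per list, 5.92% of all genes tested were lower in the mutant and 6.97% higher. Epidermis markers, 26 of 28 measured, took 0.465%, 2.08% and 0.376% of the reads of mutant replicates 1 to 3, against 12.5% and 11.8% in wildtype, with 7 lower and none higher in the test described below. Without each library's 10 most abundant genes the epidermis share was 0.544%, 2.48% and 0.468% in the mutant, against 2.18% and 2.17% in wildtype. Those 10 genes were picked in each library, and included epidermis markers in wildtype but not in the mutant. The markers left thus differ between the groups, so these shares cannot be compared directly. Intestine markers, 17 of 20 measured, took 0.0660% to 0.233% in the mutant and 0.691% and 0.853% in wildtype (7 lower). Muscle markers, 20 of 20 measured, took 0.345% to 0.502% in the mutant and 1.60% and 2.85% in wildtype (12 lower). Germline markers, 20 of 20, took 0.0289% to 0.115% in the mutant and 0.159% and 0.554% in wildtype (8 lower). Pan-neuronal markers ran the other way, with 1.20% to 2.05% in the mutant and 0.0454% and 0.446% in wildtype (9 of 20 higher). Although all libraries are labelled as neurons, epidermis markers took more reads than pan-neuronal markers in both wildtype libraries and in mutant replicate 2. Coelomocyte markers took 0.183% to 0.311% in the mutant and 0.0187% and 0.0473% in wildtype (2 of 6 higher). None passed in either direction among glia markers (12 of 15 measured; 0.0298% to 0.0622% in the mutant, 0.0131% and 0.0293% in wildtype) or pharynx and arcade markers (12 of 15; 0.0580% to 0.413% in the mutant, 0.0478% and 0.146% in wildtype). With 12 genes measured in either list, the lack of calls is not clearly below the shares of all genes given above. The muscle list and the pharynx list share 3 genes. Some markers, named here for that reason, had no read in a library. Among epidermis markers these were dpy-7, bli-1 and bli-2 in mutant replicate 1 and dpy-3 and bli-1 in mutant replicate 3. The intestine markers ges-1 and elt-2 had none in mutant replicate 1, and end-1 had none in any library. The germline markers spn-4 and htp-1 had none in mutant replicate 1, and 7 had none in mutant replicate 3. The muscle gene hlh-1 and the neuronal gene unc-31 had none in wildtype replicate 2. The glia and pharynx lists also held genes without a read in libraries of each genotype. In such bulk libraries fewer cells of a type and less RNA per cell cannot be told apart, and the part of tissue content in the ttr values below was not tested.

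**Figure D2:**
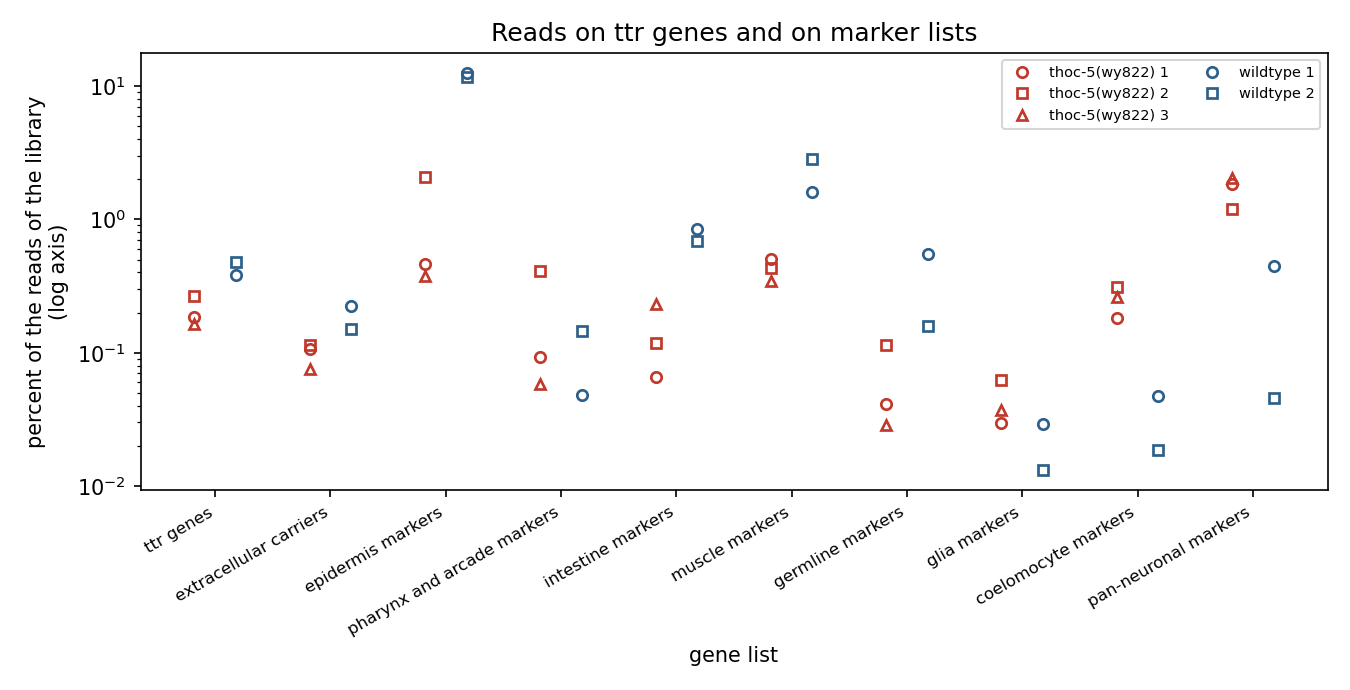
Percent of each library's reads (log axis) on all 58 ttr genes, extracellular and lipid carrier genes (labelled extracellular carriers) and marker lists. Red symbols are the 3 thoc-5(wy822) libraries and blue symbols the 2 wildtype libraries. The ttr share was 0.165% to 0.266% in the mutant and 0.382% and 0.477% in wildtype. The summed shares of the epidermis, intestine, muscle and germline lists were also lower in every mutant library.

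The comparison asks how a mutation of thoc-5 bears on the abundance of ttr transcripts in sorted neurons. Tested over all 13787 genes that met the level rule (limma on log2(normalised count + 1), Benjamini-Hochberg adjusted p below 0.05), 9 of the 47 measured ttr genes fell in the mutant and 1 rose. Across all genes tested, 5.92% fell and 6.97% rose. The ttr genes' median log2 fold change, mutant minus wildtype, was -2.36, against 0.13 over all genes tested, and 39 of 47 had a value below 0, as did 47.7% of all genes. All 3 mutant libraries lay below the lower wildtype library for 28 of the 47, where 26.5% of all genes did so, and above the higher wildtype library for 2, where 30.1% of all genes did so. Leaving out ttr-35 and ttr-50, which met the level rule through wildtype alone, 26 of 45 lay below wildtype, 37 of 45 had a value below 0 and the median was -2.25. The call count rests on nearly every library. With any 1 mutant library, or wildtype replicate 2, left out, 0 ttr genes and 0% of all genes passed in limma (11 to 26 ttr genes at an unadjusted p below 0.05), and without wildtype replicate 1 there were 3 lower (3.48% of all genes) and 2 higher (15.7%). Those were ttr-24, ttr-25 and ttr-16, and ttr-1 and ttr-39. edgeR called 0 (21 at an unadjusted p below 0.05), DESeq2 called 15 of 46 lower (11.6%) and 2 higher (15.4%), and the authors' deposited table holds 15 lower (10.7%) and 2 higher (13.4%). In limma a pseudocount of 0.5 gave 7 lower and 1 higher (4.12% and 4.80% of all genes), and a pseudocount of 8 gave 17 and 1 (10.7% and 12.6%). With no filter on level 8 were lower and 1 higher (2.89% and 2.82%), with a filter of 50 the counts were 9 and 1 of 30 (7.17% and 8.74%), with upper quartile scaling 12 and 1 (7.36% and 8.12%), and with quantile normalisation 18 and 1 (10.3% and 11.4%).

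**Figure D3:**
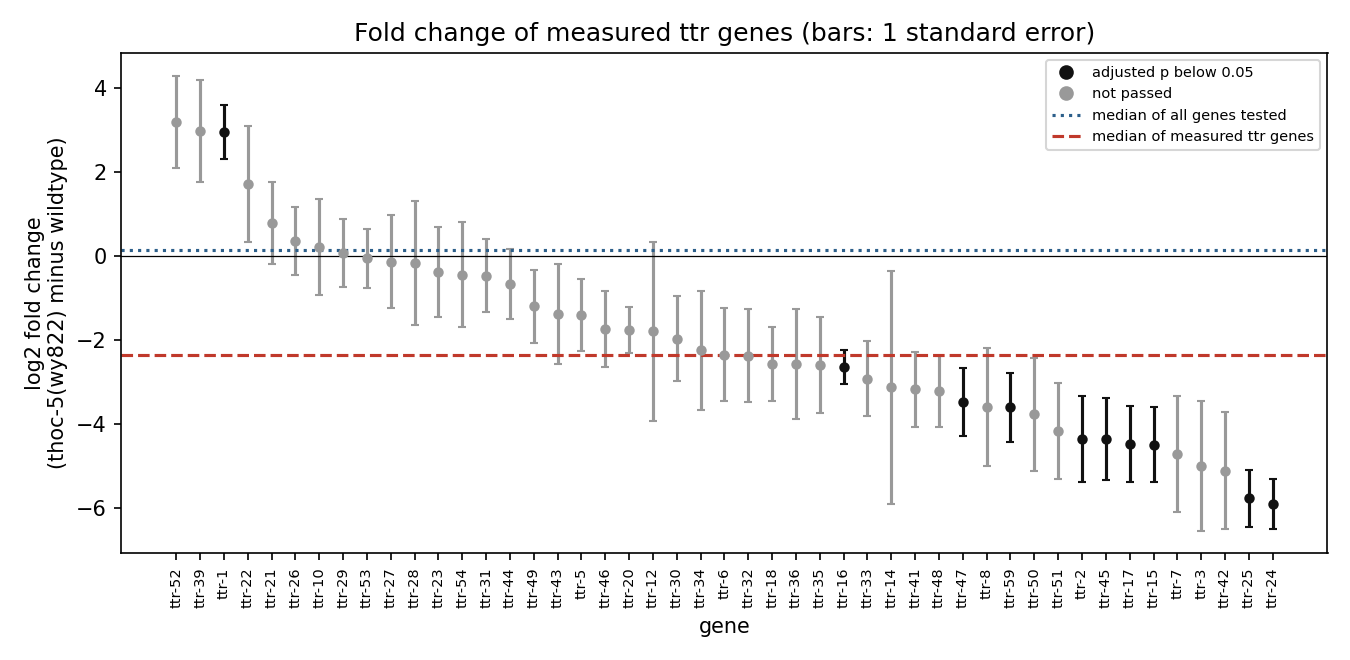
Difference in mean log2(normalised count + 1), thoc-5(wy822) minus wildtype, for the 47 measured ttr genes, with bars of 1 standard error; black points passed at an adjusted p below 0.05 in limma, grey points did not. The median of the measured ttr genes was -2.36 and that of all genes tested 0.13.

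The deepest falls were those of ttr-24 and ttr-25, neighbours on chromosome V. ttr-24 (WBGene00013077, WBcel235 chromosome V, 18555387 to 18556643, minus strand) had normalised counts of 12.5, 13.4 and 19.5 in mutant replicates 1 to 3, against 802 and 1145 in wildtype replicates 1 and 2. ttr-25 had 10.2, 25.7 and 16.6 in the mutant, against 697.7 and 1307 in wildtype. All 3 mutant libraries lay far below both wildtype libraries for either gene. The mean of ttr-24 was 15.1 ± 3.80 in the mutant (SD, n = 3) and 973 ± 243 in wildtype (n = 2), 64.3 times lower (log2 fold change -5.92, SE 0.59, adjusted p = 0.0382). That of ttr-25 was 17.5 ± 7.78 in the mutant and 1002 ± 431 in wildtype, 57.4 times lower (-5.78, SE 0.67, adjusted p = 0.0382). By p-value ttr-24 ranks 2 and ttr-25 ranks 9 among 18858 genes in the authors' deposited table, which lists -5.81 (adjusted p = 1.47e-16) and -5.61 (adjusted p = 5.62e-12) as their log2 fold changes. The models of ttr-24 and ttr-25 each give a protein of 141 residues. Whether they are near-identical copies was not examined, and how shared reads were counted is not given in the sources used here, so their separate values are uncertain.

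The 2 members with the highest mean level per kb of exon in wildtype, and over all 5 libraries, also fell. ttr-15 (WBGene00011561, WBcel235 chromosome III, 10337847 to 10339440, plus strand) had normalised counts of 353, 2512 and 439 in mutant replicates 1 to 3, against 13360.5 and 20636 in wildtype replicates 1 and 2. Mutant replicate 2 was the highest mutant library by a wide margin and still lay below both wildtype libraries (log2 fold change -4.50, SE 0.89, adjusted p = 0.0397). ttr-16 (WBGene00012382, WBcel235 chromosome IV, 11063530 to 11064137, minus strand) had 1234, 1057 and 1369.5 in the mutant, against 7559.8 and 7787 in wildtype. Its replicates lay close together in either group, with means of 1220.1 ± 157 in the mutant (SD, n = 3) and 7673 ± 161 in wildtype (n = 2), 6.29 times lower (log2 fold change -2.66, SE 0.41, adjusted p = 0.0382). Per kb of exon, ttr-15 averaged 1809 normalised counts in the mutant and 27912 in wildtype, and ttr-16 averaged 2374 and 14929. By mean level per kb the mutant thus held more ttr-16 and wildtype more ttr-15, and mutant replicate 2 was the mutant library with more ttr-15 than ttr-16. Exons of ttr-16 share 209 bases (40.7%) with exons of lin-3 on the other strand, and the library kits named do not mark strand; lin-3 itself had at most 27.9 normalised counts in any library.

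The other 5 members that fell spanned a range of levels. ttr-17, which lies next to ttr-16, had 18.02, 16.7 and 3.90 in mutant replicates 1 to 3, against 296 and 234.8 in wildtype (log2 fold change -4.48, adjusted p = 0.0397). ttr-2 had 55.6, 350.5 and 40.9 in the mutant, against 1079.7 and 3490.2 in wildtype (-4.37, adjusted p = 0.0450). ttr-45 had 17.2, 75.9 and 10.7 in the mutant, against 301 and 911 in wildtype (-4.37, adjusted p = 0.0440). ttr-2, ttr-45 and ttr-59 shared a pattern in which mutant replicate 2 stood well above the other mutant libraries but under the lower wildtype library. ttr-59 had 39.9, 169.7 and 29.2 in the mutant, against 651 and 814 in wildtype (-3.61, adjusted p = 0.0440). ttr-47 had 21.9, 11.2 and 7.80, against 164 and 137 (-3.48, adjusted p = 0.0450), with mutant replicate 1 the highest of its group. Exons of ttr-47 share 52 bases with H14N18.4 on the other strand, which had 89.3, 334 and 80.9 normalised counts in mutant replicates 1 to 3, against 491 and 1092 in wildtype.

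ttr-1 was the single member that rose. It had normalised counts of 1068, 2941 and 1319.8 in mutant replicates 1 to 3, against 341 and 127 in wildtype replicates 1 and 2 (WBGene00010541, WBcel235 chromosome III, 9929077 to 9930413, plus strand). All mutant libraries lay above both wildtype libraries, and the means were 1776 ± 1016 in the mutant (SD, n = 3) and 234 ± 151 in wildtype (n = 2), 7.58 times higher (log2 fold change 2.94, SE 0.64, adjusted p = 0.0431). With any 1 library left out its log2 fold change was 2.23 to 3.65. Since the groups lay apart, leaving out a library could not turn the sign.

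**Figure D4:**
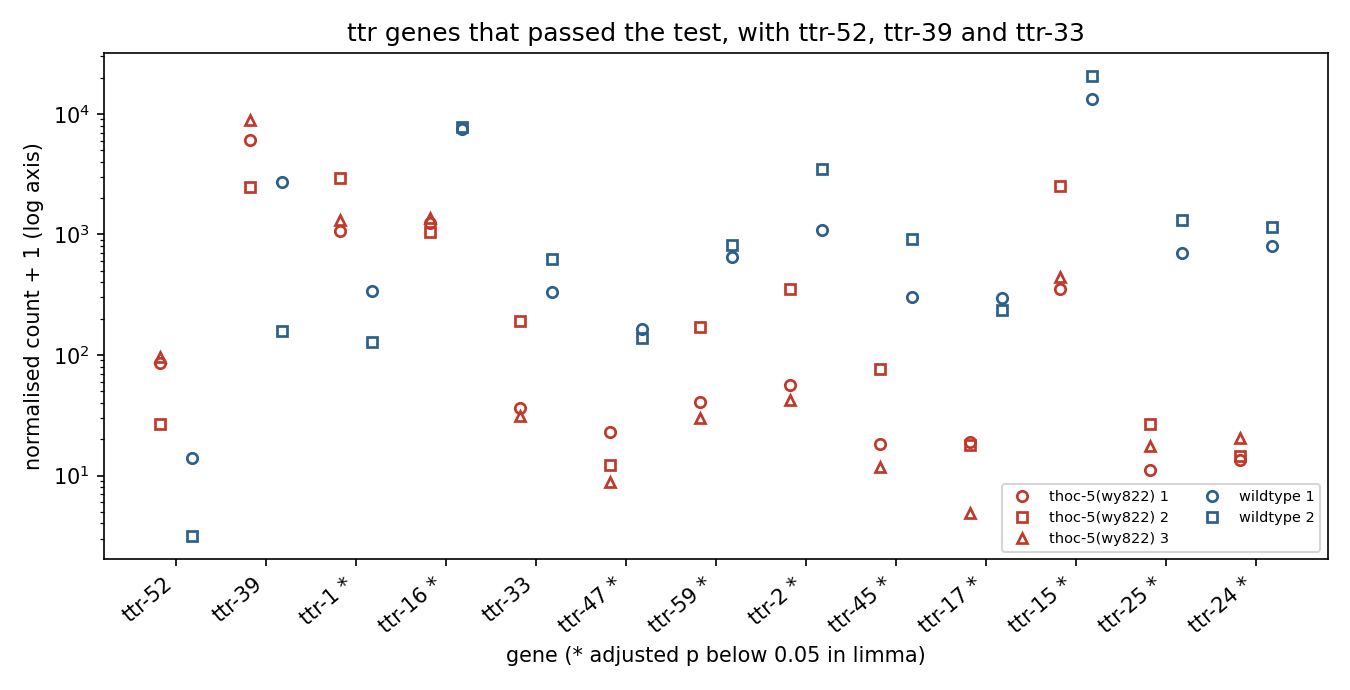
Normalised count + 1 (log axis) in each of 3 thoc-5(wy822) libraries (red) and 2 wildtype libraries (blue) for the 10 ttr genes that passed the test (asterisks) and for ttr-52, ttr-39 and ttr-33, which did not. The groups are apart for every gene shown except ttr-39, where mutant replicate 2 lies below wildtype replicate 1.

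The corpse-binding gene ttr-52 was the only other measured member whose groups lay apart in the upward direction. It had normalised counts of 85.4, 25.7 and 94.5 in mutant replicates 1 to 3, against 13.1 and 2.12 in wildtype replicates 1 and 2 (WBGene00008719, WBcel235 chromosome III, 13404718 to 13405783, plus strand). These stood on 109, 23 and 97 mutant reads and on 15 and 2 wildtype reads, so the wildtype level is poorly determined. At a log2 fold change of 3.19 (SE 1.10) the difference did not pass (adjusted p = 0.0873); in the authors' deposited table it is 2.85 (adjusted p = 0.0307). Without wildtype replicate 2 it was 2.10.

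The dopamine neuron protector ttr-33 ran the other way without passing. Its normalised counts were 35.2, 189.7 and 30.2 in mutant replicates 1 to 3, against 331 and 624 in wildtype replicates 1 and 2. Mutant replicate 2 was again the highest of its group and lay below both wildtype libraries. Its log2 fold change came to -2.93 (SE 0.90, adjusted p = 0.0703; WBGene00016505, WBcel235 chromosome V, 7837093 to 7837909, minus strand). Exons of ttr-33 share 42 bases (7.14%) with txt-5 on the same strand, for which no count is listed under that name.

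Genes that act with TTR-52 in the clearance of dying cells were also read, from a list of 46 engulfment genes of which 44 were measured. In that list 1 gene rose (2.27%, against 6.97% of all genes tested) and 2 fell (4.55%, against 5.92%), with a median log2 fold change of 0.19, beside 0.13 over all genes tested. nrf-5, which encodes a secreted lipid-binding protein that works with TTR-52 and the transporter CED-7, had normalised counts of 20.4, 56.9 and 22.4 in mutant replicates 1 to 3, against 481 and 407 in wildtype (log2 fold change -3.85, SE 0.67, adjusted p = 0.0384). The adaptor gene ced-6 had 96.3, 114 and 71.2 in the mutant, against 324 and 408 in wildtype (-1.97, SE 0.49, adjusted p = 0.0482). The integrin alpha gene ina-1 rose, with 1440.5, 1483 and 1081 in the mutant, against 189 and 120.1 in wildtype (3.12, SE 0.43, adjusted p = 0.0382). For each of these 3 genes the mutant libraries lay apart from both wildtype libraries. With any 1 library left out no engulfment gene was called lower, and 0 were called higher except without wildtype replicate 1, where 7 of 44 were, as were 15.7% of all genes tested; edgeR called 0 in either direction (7 higher and 3 lower at an unadjusted p below 0.05).

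The other 41 measured genes of the list did not pass. lst-4, a sorting nexin gene of phagosome maturation, reached 2.64 on the log2 scale (adjusted p = 0.0510), and none of the 16 genes of that step was called. ced-1, the gene of the receptor that TTR-52 binds, had 318, 319 and 428 in mutant replicates 1 to 3, against 326 and 276 in wildtype (0.23, adjusted p = 0.723), with overlapping groups. The phosphatidylserine receptor gene psr-1 averaged 191 ± 49.2 in the mutant (SD, n = 3) and 190.2 ± 48.1 in wildtype (n = 2). ced-1 and psr-1, like the transporter gene ced-7 (1.91, adjusted p = 0.0680), are named here after their values were seen.

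Several of the most abundant members were not called. ttr-39, which averaged 8576 normalised counts per kb of exon in the mutant, the highest of the family there, and 2125 in wildtype, had normalised counts of 6082, 2453 and 8961 in mutant replicates 1 to 3, against 2734 and 156 in wildtype replicates 1 and 2. Mutant replicate 2 lay below wildtype replicate 1, and the log2 fold change of 2.96 (SE 1.21, adjusted p = 0.126) was 0.90 without wildtype replicate 2 and 5.02 without wildtype replicate 1. Its exons share 71 bases with ndc-80 on the other strand, which had at most 363 normalised counts in any library. ttr-34 had 132, 2527 and 285 in the mutant, against 725 and 6593 in wildtype (-2.25, adjusted p = 0.285), so that mutant replicate 2 lay above wildtype replicate 1. That value was -0.66 without wildtype replicate 2, -3.85 without wildtype replicate 1, -3.49 without mutant replicate 2 and -1.36 without mutant replicate 1. ttr-20 was lower in all 3 mutant libraries, at 189.6, 547 and 242 against 961 and 1033, without passing (-1.76, adjusted p = 0.0724). ttr-21 had 379, 1339 and 204 in the mutant, against 593 and 126 in wildtype, and its value of 0.77 (adjusted p = 0.597) was -0.34 without wildtype replicate 2.

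Neighbouring members did not always move together. Of 12 adjacent pairs in which each gene was measured, 9 had fold changes of the same sign. With 39 of the 47 measured members below 0, most pairs share a sign whether or not they are neighbours. On chromosome III, ttr-3, ttr-2 and ttr-1 lie side by side with 72 bases between ttr-2 and ttr-1, which are on the same strand. ttr-2 fell and ttr-1 rose, while ttr-3 had 17.2, 224 and 6.82 normalised counts in mutant replicates 1 to 3, against 371 and 2777 in wildtype (-4.998, adjusted p = 0.0709). Between the groups ttr-1 thus ran opposite to its neighbours. Within the mutant, ttr-1, ttr-2 and ttr-3 were each highest in mutant replicate 2.

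A second such trio is ttr-24, ttr-25 and ttr-26 on chromosome V, where 70 bases separate ttr-24 from ttr-25 and 658 separate ttr-25 from ttr-26. ttr-26 had 325, 1971 and 408 in mutant replicates 1 to 3, against 607 and 416 in wildtype replicates 1 and 2, with overlapping groups (0.35, adjusted p = 0.785; -0.46 without mutant replicate 2). Its libraries thus did not part by genotype, whereas those of the adjacent ttr-25 lay far apart.

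Apart from the genes named above as falling, the other neighbours did not pass. In the pair of ttr-51 and ttr-45, ttr-51 had 13.3, 143 and 13.6 in the mutant, against 374 and 849 in wildtype (-4.18, adjusted p = 0.0561), a value near that of ttr-45. Among the adjacent ttr-27, ttr-28 and ttr-29 the groups overlapped. ttr-27 had 86.2, 847 and 65.3 in the mutant, against 159 and 218 in wildtype (-0.14, adjusted p = 0.942). ttr-28 had 28.2, 11.2 and 17.5, against 106 and 3.19 (-0.17, adjusted p = 0.946), with wildtype replicate 1 far above the rest. ttr-29 had 112, 282 and 58.5, against 176 and 78.6 (0.06, adjusted p = 0.965). ttr-53 varied little, at 36.03, 42.4 and 40.9 in the mutant, against 38.4 and 44.6 in wildtype (-0.06, adjusted p = 0.962). Its neighbour ttr-54 had 68.9, 5.58 and 12.7, against 15.7 and 37.2 (-0.45, adjusted p = 0.820), and was highest in mutant replicate 1.

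Most neighbours at low levels had all mutant libraries below both wildtype libraries without passing. ttr-8 had 2.35, 16.7 and 0 in mutant replicates 1 to 3, against 41.9 and 52.1 in wildtype (-3.61, adjusted p = 0.113). Its exons share 59 bases with lgc-12 on the other strand, which ran the other way, at 983, 938 and 993 in the mutant and 127 and 62.7 in wildtype. ttr-32, beside ttr-8, had 8.62, 51.3 and 6.82, against 56.7 and 116 (-2.38, adjusted p = 0.166). ttr-36 had 1.57, 10.05 and 0, against 14.8 and 20.2 (-2.59, adjusted p = 0.198). The adjacent ttr-35 had 0.783, 6.70 and 4.87, against 40.1 and 15.9 (-2.61, adjusted p = 0.147), so either gene of that pair was near the level rule. ttr-30, next to ttr-59, had 3.13, 11.2 and 4.87, against 27.04 and 23.4 (-1.97, adjusted p = 0.199). ttr-49, next to the barely detected ttr-40, had 34.5, 13.4 and 13.6, against 43.6 and 44.6 (-1.21, adjusted p = 0.348). ttr-12, with 2 genes between it and ttr-11, had reads in 1 library of each genotype, as given above (-1.80, adjusted p = 0.572).

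**Figure D5:**
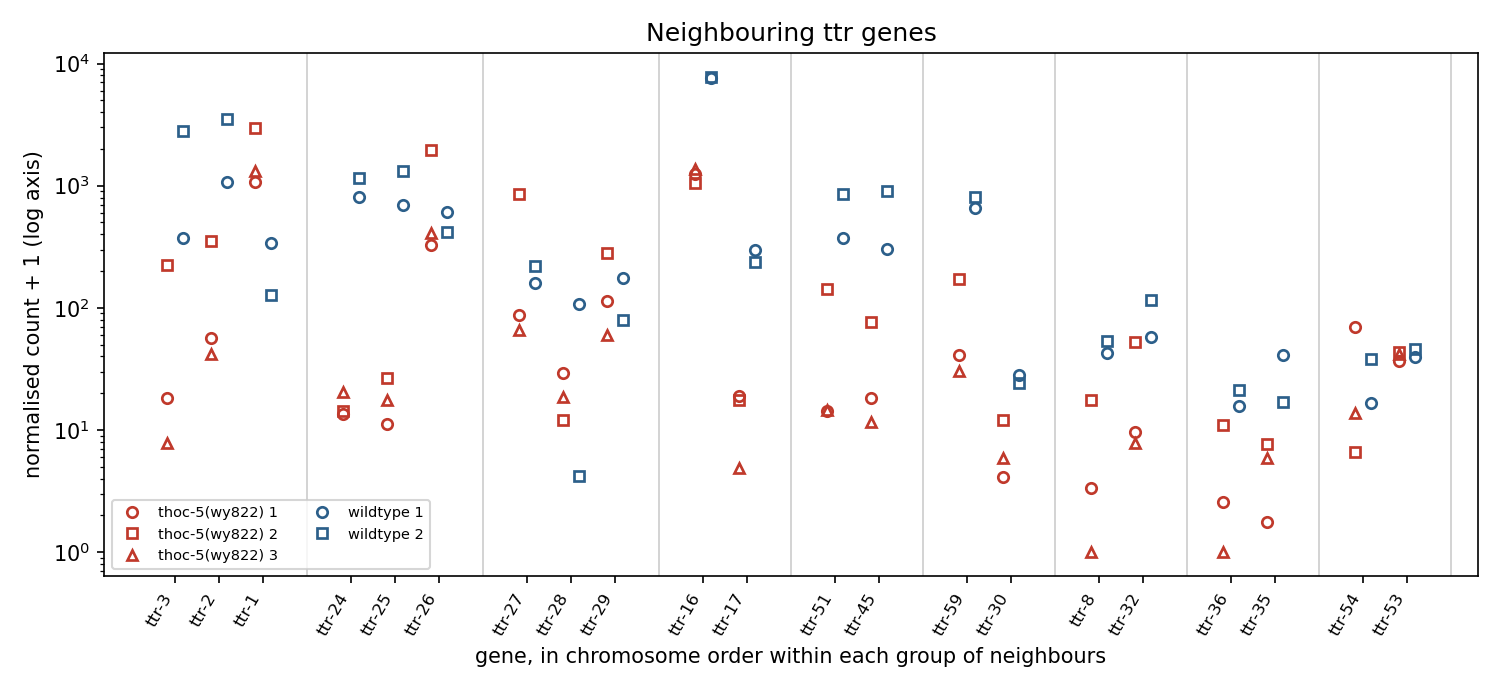
Normalised count + 1 (log axis) of measured ttr genes that neighbour each other, in chromosome order within each group, in 3 thoc-5(wy822) libraries (red) and 2 wildtype libraries (blue). ttr-1 lies higher in the mutant while ttr-3 and ttr-2 lie lower, and ttr-26 overlaps between the groups while ttr-24 and ttr-25 lie apart.

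Mutant replicate 2 stood apart within its group across the family. It was the highest of the 3 mutant libraries for 33 of 47 measured ttr genes, against 6 for replicate 1 and 8 for replicate 3, where 36.7% of all genes tested had their highest mutant value in replicate 2. The gap was wide at ttr-14, with 7.83, 1611 and 0.975 in mutant replicates 1 to 3, against 78.5 and 894 in wildtype replicates 1 and 2. At -3.13 on the log2 scale (SE 2.78, adjusted p = 0.445) it did not pass, and the authors' deposited table lists 0.11. The same library was the highest mutant library for 23 of 26 epidermis, 11 of 12 pharynx and arcade, 15 of 20 germline, 9 of 12 glia, 4 of 6 coelomocyte and 10 of 20 muscle markers. It was so for 16 of 22 extracellular and lipid carrier genes, 4 of 17 intestine markers and 0 of 20 pan-neuronal markers. Without it the ttr median log2 fold change was -3.03, and without any other single library it lay between -1.88 and -2.39. No batch is given in the labels, and the part of tissue content in this pattern was not tested.

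Of the 28 members whose mutant libraries all lay below wildtype, 19 did not pass. The lowest log2 fold change of the 19 was that of ttr-42, at 0, 11.2 and 12.7 in mutant replicates 1 to 3, against 285 and 126 in wildtype (-5.12, SE 1.39, adjusted p = 0.0557). ttr-48, ttr-41, ttr-7, ttr-50 and ttr-18, named after their values were seen, had log2 fold changes of -3.23, -3.19, -4.72, -3.78 and -2.58 (adjusted p = 0.0531 to 0.0913). Levels this low rest on few mutant reads, such as 0, 15 and 2 for ttr-7. The last 3 of the 19, ttr-5, ttr-6 and ttr-46, had log2 fold changes of -1.42, -2.36 and -1.75. Measured members not described so far, ttr-10, ttr-22, ttr-23, ttr-31, ttr-43 and ttr-44, overlapped between groups with log2 fold changes of -1.39 to 1.71. ttr-44, at 21.1, 27.9 and 15.6 in the mutant and 25.3 and 45.7 in wildtype, shares 167 exon bases (25%) with R11G10.3 on the other strand. R11G10.3 had 306, 241 and 130 normalised counts in mutant replicates 1 to 3, against 21.8 and 45.7 in wildtype. By chromosome, the median log2 fold change of measured members was -3.61 on III (9 members), -2.66 on IV (9), -2.60 on X (10), -2.88 on II (2) and -0.67 on V (17).

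Other genes of related function were read for context. Transthyretin-like proteins are distinct from the enzyme 5-hydroxyisourate hydrolase, the other branch of the transthyretin superfamily. Of its worm genes, R09H10.3 had 78.3, 83.7 and 105 in mutant replicates 1 to 3, against 208 and 165 in wildtype (log2 fold change -1.06, adjusted p = 0.178), and ZK697.8 had no read. In a list of 24 genes of extracellular and lipid carriers, 22 were measured, 5 fell (22.7%, against 5.92% of all genes tested) and none rose (against 6.97%), with a median log2 fold change of -1.76. They were lbp-2 (-3.88), lbp-3 (-4.67), far-2 (-2.87), lbp-6 (-2.84) and far-5 (-4.06), with adjusted p of 0.0382 to 0.0476, all of the lbp and far families of fatty acid and retinol binding proteins. far-5 is named after its value was seen, and lbp-6 is also one of the intestine markers. None of the 7 lipocalin-related lpr genes passed, and their median was 0.74.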

How the data were processed

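The authors deposited a single table. Per the file headers it holds a normalised value for each gene and library beside the mean over libraries, the log2 fold change with its standard error, a test score, and raw and adjusted p-values. The deposited library values are a signal: read counts scaled by a library's size factor. All were whole multiples of 1 read within 1e-04 reads (100.0% in each library). The submitters' processing notes name Trim Galore, STAR 2.4.2a, DESeq2 and build ce10. Neither counter nor annotation is given in the sources used here. Gene models came from the Ensembl 115 annotation of WBcel235, matched by name for all 58 ttr genes; the table has no coordinates. Members and lists were chosen with earlier results of these data known.

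The test was limma 3.58.1 in R 4.3.3 with a trended eBayes prior, fitted to log2(normalised count + 1) of genes reaching 10 in 2 or more libraries, with no replicate block. Fold changes run mutant over wildtype, and this scale understates changes of low genes. Recovered reads served edgeR 4.0.16 (0 genes called) and DESeq2 1.42.0 (2123 higher, 1595 lower). Scripts were tested on simulated data. Named ttr genes are those that passed, ttr-52, ttr-11 and ttr-33, the 10 highest per kb of exon, the 5 largest non-overlapping changes each way with a mean of 50 or more, and neighbours within 3 genes. Of the engulfment, hydrolase and carrier lists, the 4 smallest p are named, or 2 where none passed. Marker genes are named for having no read in a library or for the largest share of their list's reads. Exceptions are marked, among them ttr-7, ttr-14 and the unmeasured members. Intervals cover counting error only. No sequence was used here.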

Additional observations from a re-analysis of the deposited data

How the results depend on the processing

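The groups of the 10 called ttr genes lay apart, so leaving out a library or changing pseudocount or filter could not turn their signs. All 10 kept their sign under every alternative. Their calls did not: leaving out each library gave 0 to 3 lower and 0 to 2 higher, edgeR gave 0 and 0, and the fit with a replicate block, in which the numbers share nothing known beyond the label (correlation of same-numbered deviations 0.01 and 0.11), gave 0 lower and 0 higher (17 and 2 at an unadjusted p below 0.05). The fit with that block called 0 of all 13787 genes in either direction, and in it mutant replicate 3 has no partner. Lower ttr genes numbered 17 with a pseudocount of 8, 18 with quantile normalisation, and 15 with DESeq2 and in the authors' deposited table; the last 2 gave 2 higher. The remaining settings gave 7 to 12 lower and 1 higher.

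Engulfment genes higher numbered 4 with a pseudocount of 8, with upper quartile scaling and with quantile normalisation, 3 with a filter of 50, 6 with DESeq2, 4 in the authors' deposited table, 0 with edgeR and the replicate block, and 0 to 7 leaving out a library. Those lower numbered 1 with a pseudocount of 0.5 or no filter, 0 with edgeR and the block, and 0 without any 1 library.

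Signs turned for some members that did not pass, and the cause was not tested. Most were near 0 as reported, but ttr-12 was -1.80 and ttr-14 was -3.13. In the authors' deposited table ttr-14 was 0.11. There ttr-23 was 0.15, beside -0.39 as reported, and ttr-10 was -0.20, beside 0.21. Under the other settings signs were read only for the ttr genes named by rule. ttr-27 was 0.54 with the replicate block, 0.78 in edgeR, 0.81 in DESeq2 and 0.74 in the authors' deposited table. ttr-54 was 0.15 in edgeR, 0.14 in DESeq2 and 0.13 in the authors' deposited table. ttr-29 was -0.026 with upper quartile scaling. Leaving out each library in turn gave ranges that cross 0: -1.30 to 0.54 for ttr-27, -1.41 to 0.29 for ttr-54, -0.53 to 0.64 for ttr-29, -2.51 to 2.16 for ttr-28, -0.16 to 0.048 for ttr-53, -0.46 to 0.83 for ttr-26, -0.34 to 1.89 for ttr-21 and -4.84 to 1.24 for ttr-12. Without the 10 most abundant genes of each library, ttr genes took 0.219%, 0.317% and 0.205% in the mutant and 0.510% and 0.682% in wildtype. The median log2 fold change over all genes was -0.02 with quantile normalisation, beside 0.13 as reported, and that of measured ttr genes was -2.56, beside -2.36.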
